A study of Mus musculus with 9 samples.

Results

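DNA methylation was described at 10 mouse genes known for pluripotency and the early embryo: Pou5f1, Nanog, Dppa3, Zfp42, Tdgf1, Esrrb, Sall4, Lin28a, Prdm14 and Klf4. The genes were listed by name, whatever their values, out of 21887 protein-coding genes. A CpG counted for a gene when it lay between 2 kb outside one gene end and 2 kb outside the other and had at least 1 read in each of the 9 libraries. This left 484 CpGs in 9 of the 10 genes (90%), against 17521 of all protein-coding genes (80.1%) with such a CpG. The median gene of the list had 27.5 such CpGs and the median protein-coding gene 32. Nanog had 0, and Tdgf1 had 1.

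All libraries came from Abl.1, a clonal immortalised B cell line derived from a 129S1/SvImJ x CAST/EiJ F1 mouse (female), after 2 days in culture. The medium held 1% DMSO (2 libraries), or 0.2 µM (2 libraries), 2 µM (3 libraries) or 10 µM (2 libraries) of 5-aza-2′-deoxycytidine (5-aza-dC), a nucleoside that is built into DNA during replication and binds DNA methyltransferases covalently. Live cells were recovered by centrifugation on a density gradient, and reduced representation bisulfite sequencing (RRBS), which reads CpG-rich restriction fragments, was run on their DNA. Replicates are labelled as library preparation replicates, with no separate cultures named, so p-values measure only the spread between these libraries, which may be technical. One clone stands for the B cell, the cells are immortalised, and the DMSO content of the treated cultures is not given in the labels.

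Pou5f1 (Oct4) and Nanog are the core transcription factors of the inner cell mass and of embryonic stem cells. Klf4, Esrrb, Zfp42 (Rex1), Sall4 and Prdm14 belong to the transcription factor network around them, while Dppa3 (Stella), Lin28a and Tdgf1 (Cripto) act in the egg, the early embryo and germ cells, in blocking let-7 maturation, and in Nodal signalling, respectively. Most of these genes are silent in lymphocytes, and methylation of the start regions of Pou5f1, Nanog and Dppa3 in somatic cells is well known. DNA methyltransferase 1 copies methylation onto the new strand after replication.

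The bases just before the RefSeq start sites show how little of these promoters was read. Each sequence below is 250 bases of mm10, 5′ to 3′ on the gene's strand, ending next to the start site, in lower case with CpGs read in all 9 libraries in capitals. Pou5f1 and Nanog are shown as core genes with no CpG read there, the pair for Esrrb because its internal start was read and its gene start was not, and Klf4 as the promoter with the most CpGs of the list.
Pou5f1, chr17:35505782-35506031 (+): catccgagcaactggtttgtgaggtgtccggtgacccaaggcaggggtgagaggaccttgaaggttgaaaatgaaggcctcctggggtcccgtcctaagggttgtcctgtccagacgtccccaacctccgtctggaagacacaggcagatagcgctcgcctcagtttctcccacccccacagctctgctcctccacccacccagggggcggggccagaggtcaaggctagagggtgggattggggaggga
Nanog, chr6:122707239-122707488 (+): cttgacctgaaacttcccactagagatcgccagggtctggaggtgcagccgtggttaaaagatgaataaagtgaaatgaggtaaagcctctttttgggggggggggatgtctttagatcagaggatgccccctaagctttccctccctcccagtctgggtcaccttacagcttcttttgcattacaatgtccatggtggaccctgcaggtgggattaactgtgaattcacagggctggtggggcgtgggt
Esrrb gene start, chr12:86360867-86361116 (+): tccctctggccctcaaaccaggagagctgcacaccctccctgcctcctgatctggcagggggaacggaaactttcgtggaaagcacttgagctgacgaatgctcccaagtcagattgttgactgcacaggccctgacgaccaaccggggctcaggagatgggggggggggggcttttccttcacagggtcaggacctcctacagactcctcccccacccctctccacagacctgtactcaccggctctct
Esrrb internal start, chr12:86421394-86421643 (+): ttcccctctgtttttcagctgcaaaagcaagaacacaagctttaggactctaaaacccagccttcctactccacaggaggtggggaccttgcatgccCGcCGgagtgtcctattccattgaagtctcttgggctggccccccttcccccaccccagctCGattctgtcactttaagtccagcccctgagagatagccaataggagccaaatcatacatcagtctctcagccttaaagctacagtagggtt
Klf4, chr4:55532476-55532725 (-): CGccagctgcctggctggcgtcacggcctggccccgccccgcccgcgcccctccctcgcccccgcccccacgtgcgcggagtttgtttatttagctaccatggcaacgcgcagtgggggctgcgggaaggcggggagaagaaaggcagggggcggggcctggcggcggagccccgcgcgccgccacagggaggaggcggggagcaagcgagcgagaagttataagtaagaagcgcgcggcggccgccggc

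These stretches hold 8 CpGs at Pou5f1, 3 at Nanog, 6 at the Esrrb gene start, 3 at the Esrrb internal start and 32 at Klf4. CCGG, the site of MspI that RRBS commonly uses and that reads the same on both strands, occurs once in the Pou5f1, Esrrb internal and Klf4 stretches, 2 times at the Esrrb gene start and 0 times at Nanog. Over 32851 promoter stretches of this length, 47.1% hold CCGG, 33.4% hold a CpG read in all 9 libraries, and the median holds 6 CpGs. Only the Esrrb internal start (3 of its 3 CpGs) and Klf4 (1 of its 32) had such a CpG among the stretches of the listed genes with a RefSeq promoter entry. The stretches of Zfp42 with 9 CpGs, Tdgf1 with 7 and Lin28a with 7 had none. What follows therefore describes mostly CpGs inside the genes or further out than these stretches. Gene ends of Dppa3, Sall4 and Prdm14, for which no promoter entry was used here, are named by coordinate.

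The level of a region is the share of methylated reads among all reads summed over its CpGs. An end window runs from 2 kb outside a gene end to 1 kb inside it, and the body is the gene without the 1 kb next to each end. Regions were tested where every library had at least 10 reads. Over the 1096949 CpGs read in all 9 libraries, the mean level was 37.5% and 37.7% in the DMSO libraries, 16.5% and 16.7% with 0.2 µM, 22.7% to 23.2% with 2 µM, and 30.6% and 30.7% with 10 µM. Depth was shallow, with 8590883 to 16495535 reads at CpGs per library and a median of 3 to 5 reads per CpG. A level between 0 and 100% can be a share of cells or of alleles, which cannot be told apart here, and the parental alleles were not separated.

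Median levels of the listed genes were lowest at the lowest dose and nearest to DMSO at the highest dose. The starts of Klf4 and Lin28a had little methylation in DMSO (13.0% and 15.8%) and no difference from DMSO that passed, although both passed at 0.2 µM with limma on mean levels. In the 7 end windows tested the median level was 61.7% in DMSO, 26.1% with 0.2 µM, 31.9% with 2 µM and 44.5% with 10 µM. Over all 16213 end windows the medians were 2.33%, 1.2%, 2.20% and 2.66%. In DMSO, 5 of the 7 listed windows lay at 50% or above, against 27.4% of all end windows. In the 8 bodies tested the medians were 54.9%, 24.2%, 33.4% and 42.1%, against 71.5%, 23.6%, 40.5% and 55.2% over 10656 bodies.

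**Figure D1:**
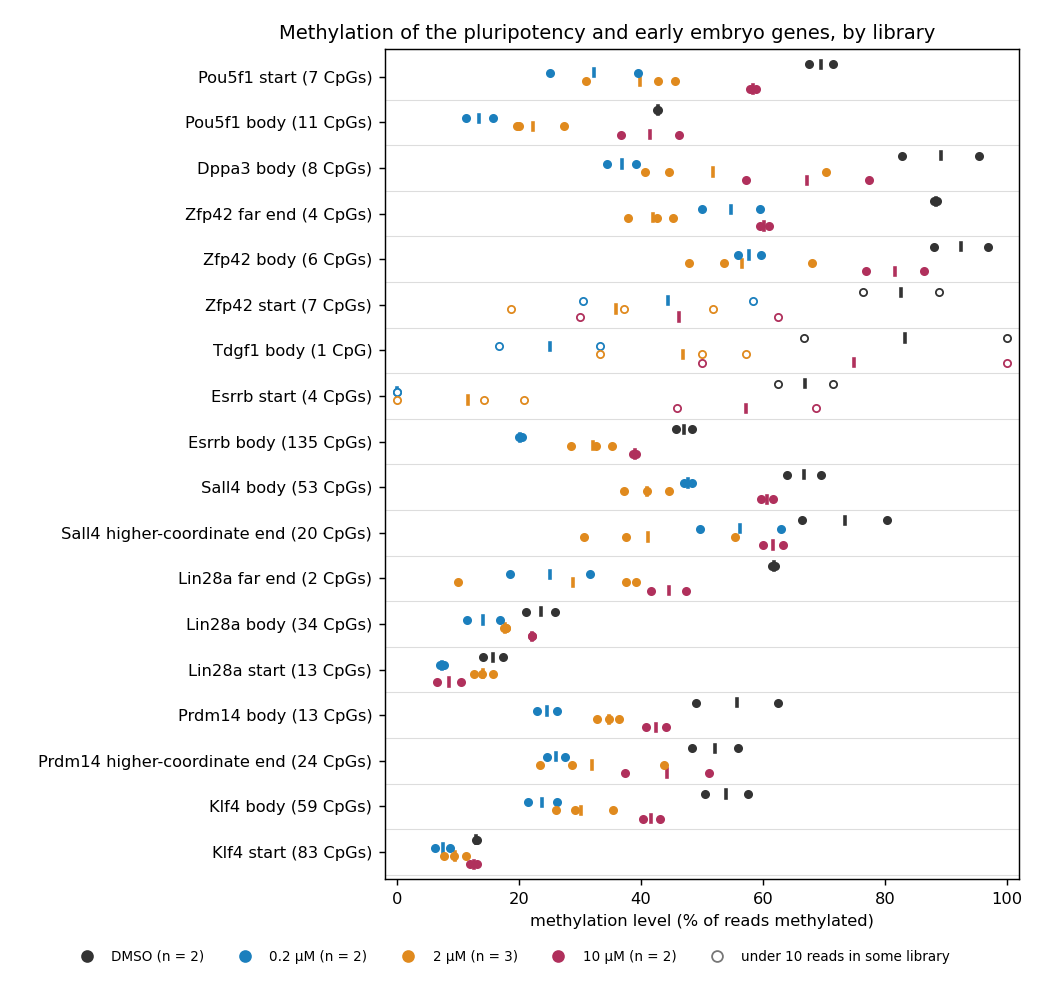
Methylation level (x axis, percent of reads methylated) in each region of the listed genes with a CpG read in all 9 libraries, with 1 point per library, coloured by group, and a bar at each group mean. Open points mark regions with under 10 reads in some library, which were not tested. DMSO libraries lie to the right of the 0.2 µM and 2 µM libraries in most regions, and the Klf4 and Lin28a starts lie under 20% in every library.

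At 0.2 µM, 4 of the 7 listed end windows fell against DMSO at an adjusted p under 0.05 (quasi-likelihood test moderated with limma), where 32.9% of all end windows were called lower. These were the Pou5f1 start, the far ends of Zfp42 and Lin28a, and the higher-coordinate end of Prdm14. With limma on mean levels 5 of 7 were called there, without the Prdm14 end and with the Klf4 and Lin28a starts. At 2 µM 4 of 7 fell, against a background of 25.6%, with the Sall4 higher-coordinate end in place of the Lin28a far end. There limma on mean levels also called 4, with the Lin28a far end in place of the Prdm14 end. At 10 µM 0 of 7 were called (background 6.91%). Lower at an unadjusted p under 0.05 were 1 of the 7 and 2588 of all 16213 end windows. By limma on mean levels 1 of the 7 and 552 of all were called lower. These backgrounds were not matched to the listed windows for level in DMSO. The counts of listed windows lean on single libraries. At 0.2 µM the 4 became 1 without DMSO replicate 1, 2 without DMSO replicate 2 and 0 without 0.2 µM replicate 1, and at 2 µM they became 2 without either DMSO library. Calls among all 16213 end windows dropped as well, at 0.2 µM from 5340 to 4329, 4248 and 4340, respectively. At 2 µM they dropped from 4144 to 2938 without DMSO replicate 1 and 3018 without DMSO replicate 2.

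All 8 bodies tested fell at 0.2 µM and 7 of 8 at 2 µM, while 81.8% and 67.6% of all bodies were called lower. At 10 µM 0 of 8 bodies were called, where 34.5% of all bodies were. Lower at an unadjusted p under 0.05 were 3 of the 8 and 4558 of all 10656 bodies. By limma on mean levels 1 of the 8 and 3786 of all bodies were called lower. The Lin28a body was the 1 that did not pass at 2 µM. In all 7 end windows and all 8 bodies the mean level was below DMSO at each dose, as it was in 77.8%, 69.1% and 62.0% of all end windows and 96.1%, 87.6% and 76.1% of all bodies. The bodies' shares stand near the background at the lower doses.

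Between doses, differences were called mainly in bodies. Higher levels at 10 µM than at 0.2 µM were called in 6 of 8 bodies, those of Pou5f1, Dppa3, Esrrb, Sall4, Prdm14 and Klf4 (background 76.3%), and in 1 of 7 end windows, the Pou5f1 start (background 18.5%). The 6 became 4 without 0.2 µM replicate 1 and without either 10 µM library, and the 1 became 0 without any of the 6 libraries of DMSO, 0.2 µM or 10 µM. Among all bodies the 8131 calls became 7100 without 0.2 µM replicate 1, and 7129 and 7436 without 10 µM replicates 1 and 2. Among all end windows the 2994 calls became 1612 to 2818 without 1 of those 6 libraries. Between 10 and 2 µM, 2 of 8 bodies were higher, Sall4 and Klf4 (background 39.0%), and 0 of 7 end windows (background 3.67%). Of the 7 end windows, 2 were higher at an unadjusted p under 0.05 (2700 of all 16213) and 1 by limma on mean levels (1078 of all). The 2 bodies became 4 without 2 µM replicate 3, and 1 without 2 µM replicate 2 or either 10 µM library. Of all bodies 4153 were called, against 3661 without 2 µM replicate 3 and 3572 without 2 µM replicate 2. Without 10 µM replicate 1 or 2 the number was 2593 or 2680. Between 2 and 0.2 µM, 1 of 8 bodies was higher, Esrrb (background 45.2%), and 0 of 7 end windows (background 2.37%). Of the 7 end windows none had an unadjusted p under 0.05 (2319 higher and 352 lower of all 16213). By limma on mean levels 1 was higher (725 of all).

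**Figure D2:**
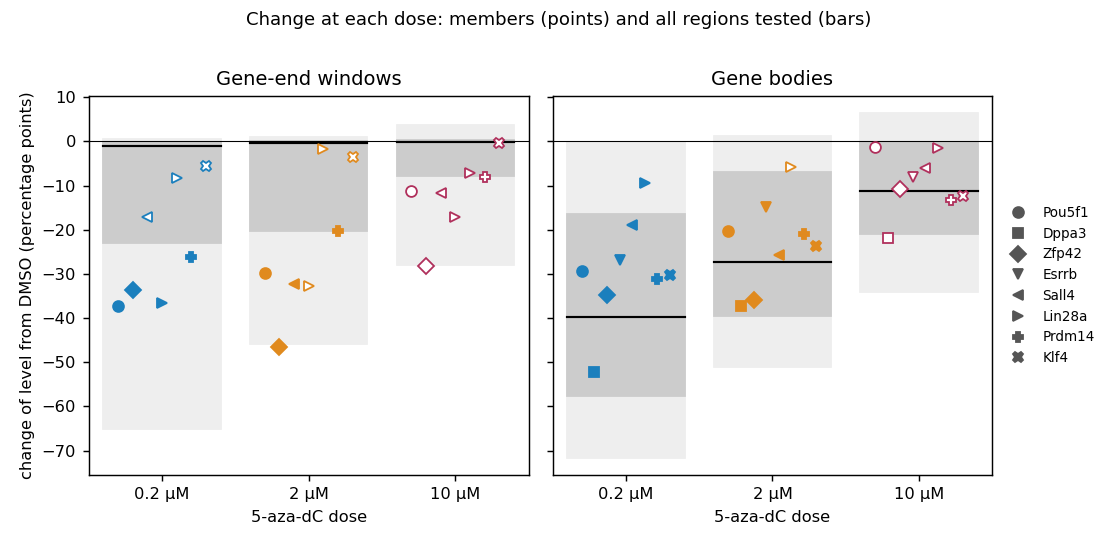
Change of the level from DMSO (y axis, percentage points) at each dose (x axis) in the end windows and bodies of the listed genes, with 1 symbol per gene, filled where the adjusted p was under 0.05. Dark bars span the middle 50% and light bars the middle 90% of all regions tested, and black lines mark their medians. Listed end windows lie mostly below the median of all end windows, which is near 0, and listed bodies lie on both sides of the median of all bodies.

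Pou5f1 (chr17:35506032-35510777, + strand) encodes the POU factor Oct4. Its start window, whose 7 CpGs lie from 49 to 613 bases inside the gene, had 67.6% and 71.4% in the DMSO libraries, 25% and 39.5% with 0.2 µM, 31.0%, 42.7% and 45.6% with 2 µM, and 57.9% and 58.8% with 10 µM. No library at 0.2 or 2 µM reached a DMSO or 10 µM library. The means were 69.5% ± 2.70 (SD, n = 2), 32.2% ± 10.2 (SD, n = 2), 39.8% ± 7.73 (SD, n = 3) and 58.4% ± 0.657 (SD, n = 2), on 34 to 149 reads per library. The window fell by 37.3 percentage points at 0.2 µM (adjusted p = 0.0024) and fell by 29.7 points at 2 µM (adjusted p = 0.00979). The difference at 10 µM was -11.2 points (adjusted p = 0.844), and 10 µM exceeded 0.2 µM by 26.1 points (adjusted p = 0.0473), a call kept in 6 of 18 alternatives. The call with 0.2 µM was lost without 0.2 µM replicate 1 (adjusted p = 0.057), and that with 2 µM without DMSO replicate 1 (0.0676) or DMSO replicate 2 (0.0791).

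In the Pou5f1 body the 11 CpGs had 42.9% and 42.6% in DMSO, 11.3% and 15.7% with 0.2 µM, 20%, 19.8% and 27.4% with 2 µM, and 36.7% and 46.2% with 10 µM. The 10 µM libraries lay on either side of the DMSO pair, and the other doses lay below both. The falls of 29.2 points at 0.2 µM (adjusted p = 0.000861) and 20.4 points at 2 µM (adjusted p = 0.015) passed, the latter not without DMSO replicate 1 (0.0747) or 2 (0.0616). At 10 µM the mean of 41.4% ± 6.71 (SD, n = 2) differed from DMSO by -1.34 points (adjusted p = 0.857).

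Nanog (chr6:122707489-122714633, + strand), the homeodomain partner of Oct4, had 0 CpGs read in every library, so no level can be given for it. Its neighbour on chromosome 6, Dppa3 (chr6:122626424-122630271), encodes a protein that shields the egg's DNA methylation in the zygote. All 8 of its CpGs lie in the body and were at 82.8% and 95.5% in DMSO, 34.5% and 39.2% with 0.2 µM, 70.3%, 40.7% and 44.6% with 2 µM, and 57.1% and 77.4% with 10 µM. One 2 µM library thus lay among the 10 µM libraries, and every treated library lay below both DMSO libraries. The mean of 89.1% ± 8.98 (SD, n = 2) in DMSO was followed by 36.8% ± 3.35 (SD, n = 2) at 0.2 µM, a fall of 52.3 points and the largest among the listed regions tested (adjusted p = 0.000125). The fall at 2 µM was 37.2 points (adjusted p = 0.00194), and the difference at 10 µM was -21.8 points (adjusted p = 0.071). That last difference passed without 2 µM replicate 2 (adjusted p = 0.0496) or 10 µM replicate 2 (adjusted p = 0.0266), and shrank to -11.7 points without 10 µM replicate 1 (adjusted p = 0.485). Both earlier falls passed in all 15 alternatives.

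Klf4 (chr4:55527137-55532475, - strand) encodes a zinc finger factor that is used in reprogramming to pluripotency and also acts in adult epithelia. Its start and body differed in level. The 83 CpGs of the start window, on 523 to 1024 reads per library, had 13.1% and 12.9% in DMSO, 6.26% and 8.74% with 0.2 µM, 7.74%, 9.38% and 11.4% with 2 µM, and 12% and 13.2% with 10 µM. The libraries at 0.2 and 2 µM lay below the DMSO pair, but the differences of -5.49 and -3.50 points did not pass (adjusted p = 0.128 and 0.497). At 0.2 µM the difference passed with no scaling of reads (adjusted p = 0.0402) and with limma on mean levels, where it was -9.62 points (adjusted p = 0.0134). These were 2 of 18 alternatives. At 10 µM the difference was -0.37 points (adjusted p = 1), and it changed sign without 10 µM replicate 1 (0.21 points). The window takes in a patch upstream of the gene whose mean level was higher at 10 µM than in DMSO, described below.

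The 59 CpGs of the Klf4 body had 50.5% and 57.5% in DMSO, 26.2% and 21.4% with 0.2 µM, 29.2%, 26.0% and 35.4% with 2 µM, and 43.1% and 40.3% with 10 µM. Each group's libraries lay clear of DMSO. The body fell by 30.2 points at 0.2 µM (adjusted p = 2.44e-06) and fell by 23.8 points at 2 µM (adjusted p = 5.31e-05), and both passed in all 17 alternatives. The difference at 10 µM was -12.3 points (adjusted p = 0.0667), and it passed where regions needed 30 reads (0.0428) or 1 read (0.0395) in place of 10. These were 2 of 17 alternatives, over which it ranged from -15.8 to -3.56 points, with adjusted p up to 0.809. Relative to 10 µM, the level was lower by 11.5 points at 2 µM (adjusted p = 0.0341, passing in 12 of 17 alternatives) and by 17.9 points at 0.2 µM (adjusted p = 0.000865, passing in all 17).

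Esrrb (chr12:86361117-86521628, + strand) encodes an orphan nuclear receptor of naive stem cells. Of the listed bodies, its body had the most CpGs (135) and the most reads in total (521 to 1044 per library). The body had 45.8% and 48.4% in DMSO, 20.5% and 19.9% with 0.2 µM, 35.2%, 32.6% and 28.5% with 2 µM, and 38.7% and 39.2% with 10 µM. The 4 groups did not overlap and stood in the order 0.2 µM, 2 µM, 10 µM, DMSO. The fall was 26.8 points at 0.2 µM (adjusted p = 3.01e-08) and 15.0 points at 2 µM (adjusted p = 0.00012), in all 17 alternatives. The difference of -8.09 points at 10 µM did not pass (adjusted p = 0.0708), but did with limma on mean levels (adjusted p = 0.00541). That was 1 of 17 alternatives, over which the adjusted p reached 0.231. From 0.2 to 2 µM the level was higher by 11.9 points (adjusted p = 0.00145), while 10 µM and 2 µM differed by 6.89 points (adjusted p = 0.0662). The call between 0.2 and 2 µM passed in 16 of 17 alternatives. It was lost when CpGs needed 5 reads, with 6.19 points (adjusted p = 0.325).

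At the Esrrb gene start, 4 CpGs lay 707 to 801 bases inside the gene with only 4 to 24 reads per library, too few for the test. They had 62.5% and 71.4% in DMSO, 0% in both 0.2 µM libraries, 20.8%, 0% and 14.3% with 2 µM, and 68.8% and 45.8% with 10 µM. For counting error alone, an upper bound was set at 3 methylated reads where 0 were seen. This gives 75% and 13.6% in the 0.2 µM libraries (3 of 4 and 3 of 22 reads) and 30% in the 2 µM library (3 of 10 reads). The rule is rough at so few reads. These bounds take the counts as separate reads. They can be too narrow where a read covers several of these neighbouring CpGs and so counts several times. The DMSO and 10 µM libraries lay above all others.

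Zfp42 (chr8:43295067-43307009, - strand), the zinc finger factor Rex1 used as a marker of naive stem cells, was highly methylated in DMSO in each of its regions. The 4 CpGs of its far end had 88.6% and 88.1% in DMSO, 50.0% and 59.5% with 0.2 µM, 42.7%, 45.2% and 37.8% with 2 µM, and 60.9% and 59.5% with 10 µM, on 35 to 82 reads. Here the 2 µM libraries were the lowest of the 4 groups. The window fell by 33.6 points at 0.2 µM (adjusted p = 0.00986) and fell by 46.4 points at 2 µM (adjusted p = 0.000615). The difference between these doses, -12.8 points, did not pass (adjusted p = 0.605), and 29.5% of all end windows had a negative one. At 10 µM the level was -28.1 points from DMSO (adjusted p = 0.0836), which passed with limma on mean levels (adjusted p = 0.0307). That was 1 of 18 alternatives, over which the adjusted p reached 0.346. The call with 0.2 µM was lost without DMSO replicate 1 (0.0596), DMSO replicate 2 (0.0661) or 0.2 µM replicate 1 (0.0648), and that with 2 µM was kept in all 18 alternatives.

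The Zfp42 body, with 6 CpGs, had 96.9% and 88.0% in DMSO, 55.9% and 59.6% with 0.2 µM, 53.6%, 47.9% and 68.1% with 2 µM, and 86.4% and 76.9% with 10 µM. Libraries at 0.2 and 2 µM overlapped each other and lay below those of DMSO and 10 µM. The falls of 34.7 points at 0.2 µM (adjusted p = 0.00195) and 35.9 points at 2 µM (adjusted p = 0.00119) passed, the first not without DMSO replicate 1 (0.0505). The start window had 9 to 35 reads per library and was not tested, with 76.5% and 88.9% in DMSO, 58.3% and 30.4% with 0.2 µM, 18.8%, 37.1% and 51.7% with 2 µM, and 62.5% and 30% with 10 µM.

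Sall4 (chr2:168748332-168767201), a zinc finger factor shared by stem cells and germ cells, had its lowest means with 2 µM in both of its regions. The 53 CpGs of the body had 69.5% and 63.9% in DMSO, 47.0% and 48.4% with 0.2 µM, 44.6%, 41.0% and 37.3% with 2 µM, and 61.7% and 59.6% with 10 µM, and the groups did not overlap. The body fell by 18.9 points at 0.2 µM (adjusted p = 0.00071) and fell by 25.7 points at 2 µM (adjusted p = 1.41e-05), and 10 µM exceeded 2 µM by 19.7 points (adjusted p = 0.00171). Level at 2 µM minus level at 0.2 µM was -6.80 points (adjusted p = 0.188), while the median of this difference over all bodies was 11.9 points and 8.55% of all bodies had a negative one. The call with 0.2 µM was lost when CpGs needed 5 reads (adjusted p = 0.0598).

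At the higher-coordinate end of Sall4, 20 CpGs had 80.4% and 66.4% in DMSO, 49.7% and 62.9% with 0.2 µM, 30.6%, 37.6% and 55.4% with 2 µM, and 63.3% and 60% with 10 µM. The spread within groups was wide, and the 0.2 µM libraries stood on either side of a 2 µM library. This window's level at 2 µM minus that at 0.2 µM was -15.1 points (adjusted p = 0.305), and 29.5% of all end windows had a negative difference. Of its differences from DMSO only the fall of 32.2 points at 2 µM passed (adjusted p = 0.00187), and it did so in all 18 alternatives. At 0.2 µM the difference was -17.1 points (adjusted p = 0.0996), or -10.1 points without DMSO replicate 1 and -10.5 points without 0.2 µM replicate 1.

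Prdm14 (chr1:13113428-13127163) encodes a PR domain factor that represses de novo methyltransferases in naive stem cells and is needed for germ cells. Its body (13 CpGs) had 48.9% and 62.5% in DMSO, 26.2% and 23.0% with 0.2 µM, 36.5%, 34.8% and 32.7% with 2 µM, and 44.2% and 40.7% with 10 µM. The higher-coordinate end (24 CpGs) had 56.0% and 48.4%, 24.5% and 27.6%, 23.4%, 43.8% and 28.7%, and 51.1% and 37.3% in the same order. In the body the groups did not overlap, while at the end 2 µM replicate 2 (43.8%) stood among the 10 µM libraries, and the higher 10 µM library (51.1%) stood above the lower DMSO library (48.4%).

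The Prdm14 body fell by 31.2 points at 0.2 µM (adjusted p = 0.00334) and fell by 21.0 points at 2 µM (adjusted p = 0.0399). The end fell by 26.1 points (adjusted p = 0.00943) and fell by 20.3 points (adjusted p = 0.0396). These calls were among the least stable of the list. At 2 µM the body lost its call without DMSO replicate 1 (0.0514), DMSO replicate 2 (0.284), 2 µM replicate 2 (0.0529) or 2 µM replicate 3 (0.0695), and the end without DMSO replicate 1 (0.366), DMSO replicate 2 (0.0845), 2 µM replicate 1 (0.152) or 2 µM replicate 3 (0.111). At 0.2 µM the body lost it without DMSO replicate 2 (0.0506), and the end without DMSO replicate 1 (0.12) or 0.2 µM replicate 1 (0.0676). With limma on mean levels the end passed at neither dose (adjusted p = 0.14 and 0.394), and the body not at 2 µM (adjusted p = 0.0655). With the prior from every region neither the end (0.0804) nor the body (0.0561) passed at 2 µM.

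Lin28a (chr4:134003330-134019196, - strand) encodes an RNA-binding protein that keeps let-7 precursors from maturing. Its body and start had lower DMSO means, 23.5% and 15.8%, than every other listed region tested except the Klf4 start (13.0%). The 34 CpGs of its body had 25.9% and 21.2% in DMSO, 16.8% and 11.4% at 0.2 µM, 17.9%, 17.5% and 17.8% at 2 µM, and 22.1% in both 10 µM libraries. The 10 µM libraries lay between the DMSO pair, and both other doses lay below it. A fall of 9.42 points passed at 0.2 µM (adjusted p = 0.0251), but not without DMSO replicate 1 (0.174) or 0.2 µM replicate 2 (0.223). The difference with 2 µM was -5.77 points (adjusted p = 0.163), or -3.41 points without DMSO replicate 1. With limma on mean levels it was -12.5 points and passed (adjusted p = 0.00218), the only 1 of 17 alternatives in which it did.

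The Lin28a start window (13 CpGs) had 14.1% and 17.4% in DMSO, 7.10% and 7.78% with 0.2 µM, 12.7%, 15.7% and 13.9% with 2 µM, and 6.50% and 10.5% with 10 µM. It was the only listed region tested in which the mean at 10 µM lay below that at 2 µM, with a difference of -5.62 points (adjusted p = 0.767), and none of its differences from DMSO passed (adjusted p from 0.285 to 1). With limma on mean levels the difference at 0.2 µM was -10.7 points and passed (adjusted p = 0.00291), the only 1 of 18 alternatives in which it did. The far end had only 2 CpGs and 10 to 27 reads per library. It had 61.9% and 61.5% in DMSO, 31.6% and 18.5% with 0.2 µM, 37.5%, 10.0% and 39.1% with 2 µM, and 41.7% and 47.4% with 10 µM. Its fall of 36.7 points at 0.2 µM (adjusted p = 0.037) was lost on leaving out any of the 4 libraries compared (adjusted p from 0.0507 to 0.275). The prior from every region ended this call too (0.071). At 2 µM the difference of -32.8 points (adjusted p = 0.118) passed only with limma on mean levels (adjusted p = 0.0204).

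Tdgf1 (chr9:110939608-110946158, - strand), the cell surface co-receptor of Nodal, had a single CpG in its body with 3 to 7 reads per library. It read 100% and 66.7% in DMSO, 33.3% and 16.7% with 0.2 µM, 33.3%, 50.0% and 57.1% with 2 µM, and 50.0% and 100% with 10 µM. At this depth no difference can be tested.

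Within the genes the CpGs stood in patches, here taken as runs with at most 200 bases between neighbours, a division made after the levels were seen and described with no test. Of 66 patches, 33 had at least 10 reads in every library. In DMSO 17 of these lay at 50% or above and 6 under 20%. The mean level was below DMSO in 32 of the 33 at 0.2 µM and in 30 at each of the other doses, and 7 of the 33 were lower at 2 µM than at 0.2 µM. Patches of other genes were not counted, so these counts have no background.

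**Figure D3:**
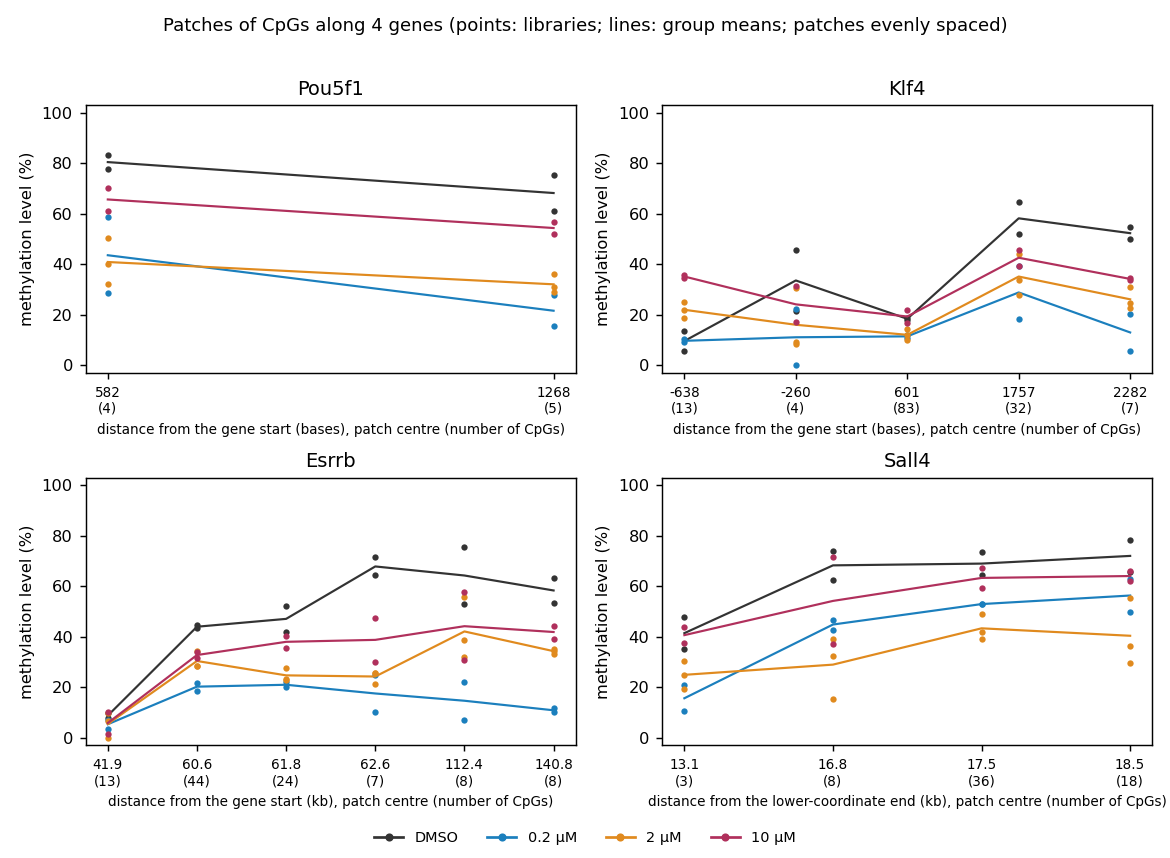
Methylation level (y axis, percent of reads methylated) of each patch of CpGs that had 10 or more reads in each library, along Pou5f1, Klf4, Esrrb and Sall4, with 1 point per library and lines through group means. Patches are evenly spaced and labelled with their centre's distance from the gene start, or from the lower-coordinate end for Sall4, and with their number of CpGs. Klf4 stands at 18.4% in its first large patch and at 58.3% in the next in DMSO, and its leftmost patch is highest at 10 µM.

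Along Pou5f1 the level in DMSO differed between patches. The 4 CpGs from 551 to 613 bases inside the gene had 80.6% ± 3.93 (SD, n = 2) in DMSO and 43.6% ± 21.3 (SD, n = 2) at 0.2 µM, and the 5 from 1224 to 1312 bases had 68.3% ± 10.3 (SD, n = 2) and 21.6% ± 8.69 (SD, n = 2). Further on, 5 CpGs from 1992 to 2149 bases had 13.4% ± 1.26 (SD, n = 2) in DMSO, on 8 to 49 reads per library.

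In Esrrb 44 CpGs lay around the internal start, from 60218 to 61004 bases inside the gene (chr12:86421335-86422121). This patch had 44.6% and 43.3% in DMSO, 18.6% and 21.8% with 0.2 µM, 34.3%, 28.6% and 28.3% with 2 µM, and 34.0% and 31.5% with 10 µM, on 134 to 233 reads. The 2 and 10 µM libraries overlapped, between DMSO above and 0.2 µM below. The 3 CpGs in capitals in the Esrrb internal sequence had 4 to 21 reads per library and means of 52.7% ± 13.9 (SD, n = 2) in DMSO, 12.7% ± 2.24 (SD, n = 2) with 0.2 µM, 56.0% ± 16.9 (SD, n = 3) with 2 µM and 32.5% ± 10.6 (SD, n = 2) with 10 µM. Here the mean with 2 µM was above that in DMSO. Another 13 CpGs, from 41744 to 42001 bases inside the gene, had 8.73% ± 1.40 (SD, n = 2) in DMSO and stayed within 5.31% to 5.80% in the means of the 3 doses.

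Klf4 changed level along its length. The 83 CpGs from 32 to 1170 bases inside the gene had 18.4% ± 0.503 (SD, n = 2) in DMSO, 11.5% ± 0.774 (SD, n = 2) with 0.2 µM, 12.1% ± 2.35 (SD, n = 3) with 2 µM and 19.3% ± 3.91 (SD, n = 2) with 10 µM. These are not the same 83 CpGs as those of the start window, which ends 1 kb inside the gene. The next 32, from 1544 to 1970 bases, had 58.3% ± 8.99 (SD, n = 2), 28.9% ± 15.0 (SD, n = 2), 35.2% ± 8.17 (SD, n = 3) and 42.6% ± 4.59 (SD, n = 2). Before the gene, the single CpG in capitals at the 5′ end of the Klf4 sequence had 4 to 16 reads and a mean of 26.8% ± 2.53 (SD, n = 2) in DMSO.

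Further upstream of Klf4, 13 CpGs at -713 to -564 bases (chr4:55533039-55533188) stood at near-equal means in DMSO (9.63%) and at 0.2 µM (9.71%), and at higher means at 2 µM (22.0%) and 10 µM (35.2%). The libraries had 13.5% and 5.77% in DMSO, 9.09% and 10.3% with 0.2 µM, 18.8%, 22.0% and 25.2% with 2 µM, and 34.8% and 35.6% with 10 µM, on 52 to 165 reads. Both 10 µM libraries lay above all 2 µM libraries, and these above all others. The patch lies inside the Klf4 start window, whose level over all its CpGs was similar in DMSO and at 10 µM. The patch was singled out after its values were seen, and its differences were not tested. It was 1 of 3 patches among the 33 with a higher mean with 10 µM than in DMSO, beside the Klf4 patch inside the gene and a Prdm14 patch of 8 CpGs with 58.2% in DMSO and 61.9% with 10 µM. When each CpG had the same weight, whatever its reads, the other two were lower at 10 µM than in DMSO, at 17.1% against 25.1% in Klf4 and 59.7% against 60.8% in Prdm14, and the upstream Klf4 patch was higher, at 33.3% against 9.44%.

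In Sall4 the 36 CpGs from 17218 to 17758 bases after the lower-coordinate end had 73.5% and 64.5% in DMSO, 52.8% and 53.1% with 0.2 µM, 48.8%, 42.0% and 39.1% with 2 µM, and 67.3% and 59.3% with 10 µM. The order of the body, with 2 µM lowest, was also that of this patch. It lies inside the body and holds 36 of its 53 CpGs, so it is not a separate observation. The 5 Lin28a CpGs from -984 to -780 bases had 3.33% ± 1.94 (SD, n = 2) in DMSO, the lowest DMSO level of the 33 patches.

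Other genes of the same programmes were counted by their start windows, on lists chosen with earlier results of these data known. Of 91 listed genes 36 had a start window tested, with a median level of 40.9% in DMSO, 21.7% with 0.2 µM, 26.3% with 2 µM and 32.4% with 10 µM. Over all 10223 start windows the median was 0.99% in DMSO, and 17.8% lay at 50% or above. At that level lay 7 of 14 naive pluripotency, 5 of 11 Nodal and postimplantation and 2 of 3 egg and cleavage stage windows. So did 1 of 2 trophoblast and primitive endoderm windows and 0 of 6 signalling windows. The counts that follow were not matched to the background for level in DMSO. Of the 36, 21 fell with 0.2 µM, 18 with 2 µM and 7 with 10 µM while 23.0%, 17.3% and 5.03% of all start windows were called lower. Among naive pluripotency genes 10 of 14 fell at 0.2 µM and 9 at 2 µM, and among Nodal and postimplantation genes 7 of 11 and 6 did. Egg and cleavage stage genes had 3 windows tested, of which 2 fell at each of these doses, and trophoblast and primitive endoderm genes had 2, of which 2 and then 1 fell. Of the 6 signalling genes tested, such as receptors and effectors that feed the network, 0 fell, and their median level was 0.66% in DMSO.

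The largest falls at 2 µM among these related genes were those of Lin28b, Trim71, Zar1 and Gbx2. Lin28b, the paralogue of Lin28a, had 93.5% and 87.6% in DMSO, 76.9% and 73.0% with 0.2 µM, 47.3%, 45.6% and 52.0% with 2 µM, and 52.9% and 68.8% with 10 µM. Its 2 µM libraries were the lowest, -26.7 points from 0.2 µM (adjusted p = 0.0155). Trim71, a let-7 target that acts with Lin28 proteins in early development, had 89.3% in DMSO, 67.7% with 0.2 µM, 48.5% with 2 µM and 64.7% with 10 µM, and 2 µM was -19.2 points from 0.2 µM (adjusted p = 0.0267). Both differences between these doses lost their call without either 0.2 µM library, with limma on mean levels and with the prior from every region (adjusted p up to 0.185 and 0.267), and passed in 13 and 11 of 18 alternatives. Zar1, an egg factor, fell by 39.2 points at 2 µM (adjusted p = 0.000444), and Gbx2, a homeobox factor, fell by 38.7 points (adjusted p = 2.57e-06). The smallest changes at 2 µM from a DMSO level of 50% or above were those of Fgf4, a growth factor made by stem cells, with a fall of 12.4 points (adjusted p = 0.0357, passing in 10 of 18 alternatives), and Eomes, a T-box factor, with a fall of 20.7 points (adjusted p = 0.000471).

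Across the genome the patterns of the listed end windows at 50% or above in DMSO had many near neighbours. Likeness was the root mean square difference over the 9 library levels, among 13486 end windows of other genes with 30 or more reads in each library. The nearest to the Zfp42 far end were Dll3 at 2.92 points and Rora at 3.41 points, with 368 windows within 10 points. The nearest to the Pou5f1 start were Rab38 (3.87 points) and Ccdc160 (4.22 points) with 357 windows within 10 points, and to the Prdm14 end Fgf8 (3.94 points) and Pkp1 (4.61 points) with 448. Sall4 had 136 and its nearest were Chd5 (5.79 points) and Gucy1b1 (6.43 points), and the Lin28a far end had 93 with Bhlha9 (4.96 points) and Ppp1r1b (6.48 points) nearest.

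The labelled cell type could be looked at only through methylation of marker genes, which does not show expression. Of 15 B lineage genes 6 had a start window tested. Ebf1, Vpreb1 and Blnk lay under 1% in DMSO, and Pax5, Cd22 and Rag1 at 28.3%, 43.9% and 47.0%. Of the T cell and myeloid lists 0 windows were tested, and of the erythroid and fibroblast lists 1 each, Klf1 at 13.0% and Col1a2 at 32.2% in DMSO. Whether other cells in the culture bear on the levels of the listed genes was not tested.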

How the data were processed

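RRBS was analysed in 9 libraries. Per the labels' protocols, libraries were made with a commercial kit from 50 ng of DNA and 11 PCR cycles. The authors deposited 1 table per library with a position, methylated over total reads as a text count, and a score, which in each line was 1000 times the share of methylated reads without its decimals. Positions are on mm10 per the submitters' processing notes. Aligner and caller: not given in the sources used here. Starts were read as 0-based, and 180302 of 180302 positions in RefSeq promoters (GRCm38.p6) fell on a CG. Lines of odd width (1 to 2 per library) and repeated positions (18 to 68 lines) were left out.

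Counts of reads at CpGs with at least 1 read in each library were summed per end window and body. Each region was fitted with a binomial model with 1 level per group over all 9 libraries, its reads scaled to an effective size by the correlation of reads within regions (0.0271 to 0.0043 in end windows over 5 classes of coverage). A quasi-likelihood F test followed, with the dispersion moderated by limma 3.58.1 (R 4.3.3) with a trend on coverage and not under 1. Its prior came from regions at 10 to 90%, a choice made after the first fit, with a prior from every region, recovered none of the changed end windows in simulated data. In simulated data, 200 of 16213 end windows and 200 of 10656 bodies were changed by 1.5 on the log odds scale at each dose. With this choice 102, 118 and 97 of the end windows were recovered at 0.2, 2 and 10 µM. Of the bodies 141, 147 and 128 were recovered. In the data far more than 200 regions were called lower at each dose, so these numbers do not give the power there. With the prior from every region 4751 end windows were called lower at 0.2 µM in the data, against 5340 with the prior used. Benjamini-Hochberg adjustment ran over all regions of a kind, at a threshold of 0.05.

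Neighbouring CpGs share reads, so a read counts several times, and PCR copies were not separated. Intervals and tests thus cover counting error and the spread between libraries only. CpGs that differ between the parental strains were not removed. Members and lists were chosen with earlier results of these data known. All 10 genes are named, with the 4 largest and 2 smallest changes at 2 µM among related genes, and the 2 most like windows per listed window. Alternatives were limma on mean levels, other read minimums, other windows, no scaling, a replicate block, leaving out each library, and the prior from every region, the last added after the data were seen. Computations used Python 3.11.15, numpy 2.4.6, pandas 2.3.3 and scipy 1.17.1.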

Additional observations from a re-analysis of the deposited data

How the results depend on the processing

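Of 765 values recomputed, 710 kept their direction and side of the threshold, 38 lost a call, 11 gained one and 6 changed sign. The changes of sign were of differences that had not passed. These were the Klf4 start at 10 µM (0.21 points without 10 µM replicate 1 and 0.72 with CpGs of 5 or more reads), the Lin28a body at 10 µM (0.93 without DMSO replicate 1), the Pou5f1 body at 10 µM (3.40 without 10 µM replicate 1), and, with CpGs of 5 or more reads, the Lin28a start at 2 µM (0.085) and the Sall4 body at 10 µM (1.30). The cause was not tested. Leaving out 1 library at a time, these differences ranged from -0.94 to 0.21 points for the Klf4 start, -3.79 to 0.93 for the Lin28a body and -6.09 to 3.40 for the Pou5f1 body.

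Leaving out 1 library at a time, the end windows lower than DMSO numbered 0 to 4 at 0.2 µM, 2 to 4 at 2 µM and 0 at 10 µM. Those higher at 10 than at 0.2 µM numbered 0 to 1. Bodies lower than DMSO numbered 6 to 8, 5 to 7 and 0 to 1, and bodies higher at 10 µM numbered 1 to 4 against 2 µM and 4 to 6 against 0.2 µM. Among all 16213 end windows, those lower numbered 4248 to 5483, 2938 to 4246 and 237 to 1218 in order of dose. Among all 10656 bodies they numbered 8196 to 8774, 6384 to 7292 and 2074 to 3755. Bodies higher at 10 µM numbered 2593 to 3938 against 2 µM and 7100 to 8171 against 0.2 µM. With limma on mean levels the end windows below DMSO numbered 5, 4 and 1 in order of dose (the Prdm14 end was lost, and the Klf4 and Lin28a starts or the Lin28a far end gained), and the bodies 8, 7 and 1. There 1 end window and 2 bodies were higher at 2 than at 0.2 µM, and 1 end window and 4 bodies at 10 than at 2 µM. Among all regions limma called 6184, 4535 and 552 end windows and 9585, 8734 and 3786 bodies lower than DMSO. It called 725 end windows and 4919 bodies higher at 2 than at 0.2 µM, and 1078 and 5161 at 10 than at 2 µM. With regions of 30 or more reads, 0 end windows were higher at 10 than at 0.2 µM, 1 body was lower at 10 µM and 4 bodies were higher at 10 than at 2 µM. The matching counts over all regions were 1604 of 13492 end windows, and 2835 and 3648 of 7714 bodies. With regions of 1 or more reads 2 end windows were higher at 10 than at 0.2 µM and 1 body was lower at 10 µM. Over all regions these were 4385 of 19807 end windows and 3711 of 13377 bodies. With no scaling of reads 2 end windows were higher at 10 than at 0.2 µM (3525 of all end windows). There 4 bodies were higher at 10 than at 2 µM (4560 of all bodies). With the prior from every region these counts were 0 and 1 (1853 and 3195 over all regions). With windows of 1 kb either side 0 end windows were higher at 10 than at 0.2 µM (2280 of all 15072). That setting leaves bodies as they are.

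With CpGs of 5 or more reads only 6 end windows and 5 bodies were tested. Then 0 end windows were higher at 10 than at 0.2 µM, 3 bodies were lower at 0.2 µM and 4 at 2 µM, 0 bodies were higher at 2 than at 0.2 µM, and 3 at 10 than at 0.2 µM. Of all 13424 end windows tested, 874 were higher at 10 than at 0.2 µM. Of all 7054 bodies, 4746 were lower at 0.2 µM and 3960 at 2 µM. Higher bodies numbered 960 at 2 than at 0.2 µM and 3419 at 10 than at 0.2 µM. Fewer regions tested account for part of the lower counts of bodies. Deviations of libraries with the same replicate number correlated at -0.0115 to 0.0215, and those with different numbers at -0.0215 to 0.0115. In groups of 2 the deviations mirror each other, and depth was shallow. These values therefore cannot tell whether the numbers pair the libraries. With the replicate number as a block, 4, 3 and 0 end windows and 8, 6 and 0 bodies were lower at the 3 doses, and 4 bodies were higher at 10 than at 2 µM. Among all regions 5350, 3872 and 1118 end windows and 8729, 7091 and 3715 bodies were lower, and 3687 bodies higher. Depth limits the Tdgf1 CpG and the starts of Esrrb and Zfp42, which had under 10 reads in some library.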
